A study of Mus musculus with 6 samples.

Results

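Eph receptors and ephrins were followed in mouse intestinal organoids, in which stem cells build a miniature epithelium with crypt-like buds. The members were the rows whose Ensembl ID maps to the receptors Ephb2, Ephb3, Ephb4, Epha1 and Epha2 and the ephrins Efna1, Efna4, Efnb1 and Efnb2, which made 9 genes of 31227, and all 9 passed the filter on low counts. They were chosen by name, as members of the family linked to the positioning of cells along the crypt. Earlier results of these data were known when they were chosen. The WT group was cultured without added TGF-β. The Smad4 KO group carried a loss of Smad4, also without added TGF-β, and the Smad4 KO+TGFb group carried the same loss and received TGF-β at 0.5 nM, and its organoids are called spheroids in the protocol. TGF-β on WT organoids was not analysed here. Each group had 2 libraries, all titled 48 h, and the medium of every group contained R-spondin1, Noggin and EGF. R-spondin1 strengthens Wnt signalling and Noggin blocks BMP ligands, so both were present in the controls as well. The labels do not say how Smad4 was inactivated, which intestinal region, animals or clones the organoids came from, or whether the 2 libraries of a group came from separate cultures. The p-values therefore weigh each group difference against a spread between these libraries, which may be technical. A difference in organoid line cannot be told apart from genotype. The protocol can also be read as 48 h of TGF-β followed by 2 days more, in which case time in culture cannot be told apart from TGF-β.

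Eph receptors are receptor tyrosine kinases of the cell surface, and ephrins are their ligands, which stay attached to the membrane of the neighbouring cell. Contact sends a signal into both cells and commonly makes them repel each other or alters their adhesion. A-type ephrins are held by a lipid anchor and B-type ephrins span the membrane, and EphA and EphB receptors mostly bind the class of the same letter. In the intestine EphB2 and EphB3 are found on proliferating cells and Paneth cells of the crypt, as products of Wnt/TCF target genes, while ephrin-B ligands rise toward the differentiated cells, and this opposition keeps the cell types in their places.

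Levels are CPM, a gene's count as a share of its library's total after scaling by TMM, a method that equalises libraries on the bulk of their genes. Levels of different genes are compared only as CPM per kilobase of the gene's merged exons. A gene passed when its Benjamini-Hochberg adjusted p from edgeR's quasi-likelihood test, over 15503 genes, was under 0.05, and "rose" and "fell" are used only of genes that passed. Library totals ran from 40549534 to 50699356 units, at about 4 units per fragment, and each member had at least 968 units in every library. Gene coordinates below are those of GENCODE vM21 on GRCm38. Replicates correlated at 0.9705 to 0.9757 over all tested genes. Smad4 stood at 99.4 and 109 CPM in WT, at 21.7 and 23.1 CPM in Smad4 KO and at 25.2 and 29.5 CPM in Smad4 KO+TGFb, lower in every library labelled KO. Epithelial markers (Epcam, Cdh1, Vil1, Krt8, Krt18 and Cdx2) summed to 5841 to 10560 CPM per library. Endothelial markers, relevant because Efnb2 and Ephb4 also mark vessels, summed to 0.382 to 1.41 CPM, and 3 of 6 (Cdh5, Kdr and Emcn) had no count in any library. Fibroblast markers summed to at most 0.479 CPM and leukocyte markers to at most 4.79 CPM.

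Only 2 members changed more than 2-fold in any comparison, Efnb2 and Epha2, and the sequence just before their start sites is shown for that reason. The windows are the 250 bases before the start in RefSeq (build GRCm38.p6), printed 5′ to 3′ on the gene's strand. Capitals mark GGAATG, the core motif of TEAD factors, which carry Yap on DNA, CAGAC, a short SMAD motif, and the TCF/LEF motif, spelled CTTTGAA or else CTTTGAT where its sixth base was A, and CTTTGTA or else CTTTGTT where that base was T, each searched on both strands.
Epha2, chr4:141300971-141301220, plus strand: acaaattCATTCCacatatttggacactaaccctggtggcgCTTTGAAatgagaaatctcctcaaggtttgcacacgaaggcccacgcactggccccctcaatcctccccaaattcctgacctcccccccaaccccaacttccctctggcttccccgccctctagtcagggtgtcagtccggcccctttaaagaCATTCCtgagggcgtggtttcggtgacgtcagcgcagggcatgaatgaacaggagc
Efnb2, chr8:8661243-8661492, minus strand: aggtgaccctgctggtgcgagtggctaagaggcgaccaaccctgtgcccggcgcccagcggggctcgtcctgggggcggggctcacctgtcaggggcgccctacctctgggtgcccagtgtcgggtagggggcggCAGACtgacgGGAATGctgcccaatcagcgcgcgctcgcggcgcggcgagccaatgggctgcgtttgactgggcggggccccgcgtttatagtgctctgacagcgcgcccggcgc
The Epha2 window holds the TEAD letters in 2 places, 243 to 238 and 56 to 51 bases before the start, and a TCF/LEF match 209 to 203 bases before it, with no overlap between them. Of 32851 windows of this length, 12.6% hold the TEAD letters at least once, 1.02% hold them in 2 or more places and 14.8% hold a TCF/LEF match. The Efnb2 window holds CAGAC 115 to 111 bases and GGAATG 105 to 100 bases before the start, and 42.2% of all windows hold CAGAC. The windows of Ephb2 and Ephb3 hold neither TEAD nor TCF/LEF letters, which says only that these letters are not in this window. Windows of the other members and of Efna3 were searched too. That of Epha1 holds the TEAD letters 161 to 156 bases before its start, and that of Efna4 a TCF/LEF match. CAGAC was also found before Efna1, Efna3, Efnb1, Epha1 and Ephb3. A motif of AP-1 factors was searched as well and is in neither printed window. The shares above hold for 1 window and 1 motif at a time, not for the whole search. Such matches describe letters and show no binding.

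**Figure D1:**
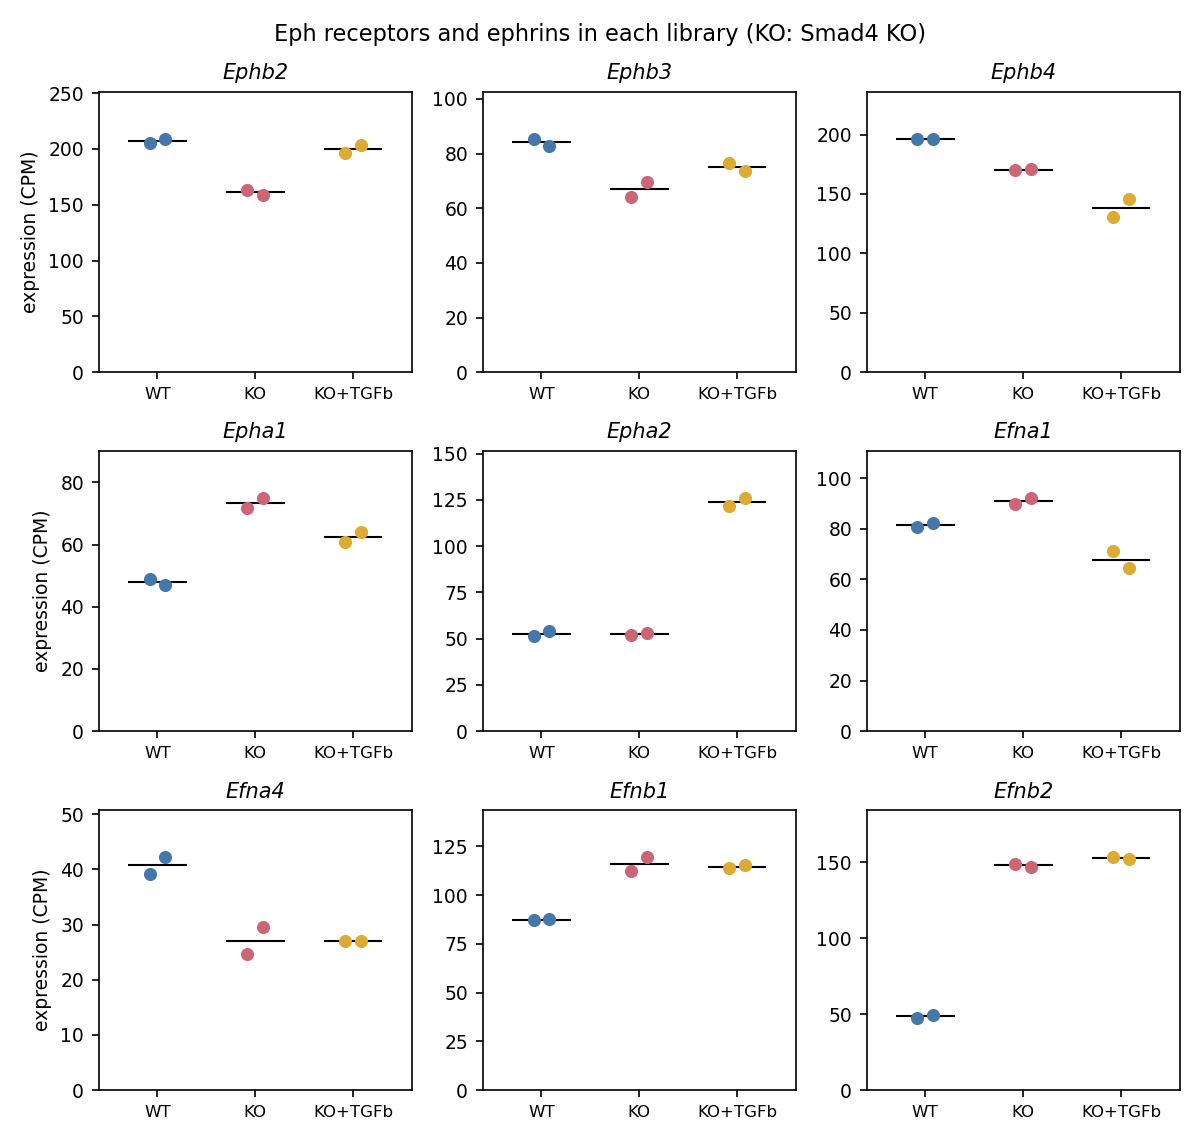
Expression of each of the 9 members (CPM, linear axis from 0) in the 6 libraries; points are libraries and lines are group means of 2 libraries. Efnb2 stands near 49 CPM in WT and near 150 CPM in all 4 Smad4 KO libraries, whereas Epha2 is high only with TGF-β, between 122 and 126 CPM.

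The first comparison set Smad4 KO against WT, both without added TGF-β. Loss of Smad4 came with more ephrin-B ligand and less EphB receptor transcript: Efnb1 and Efnb2 rose, and Ephb2, Ephb3 and Ephb4 fell. The change in Efnb2 was 3.04-fold, while the EphB receptors fell by 1.15-fold to 1.28-fold. In all, 3 members rose, 4 fell and 2 did not pass, and their median log2 fold change was -0.004. Of all genes tested, 30.3% passed (37.6% with all values divided by 4), 16.9% higher and 13.4% lower, with a median of -0.02. The share passing was 20% without either WT replicate 1 or WT replicate 2, and the genes lower, 2084 in all, then numbered 1166 and 1227, or 1387 without Smad4 KO replicate 1. In bulk RNA fewer cells of a type and less RNA per cell cannot be told apart, which holds for every result here.

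Efnb2 (chr8:8617434-8661242), the B-type ephrin best known from arteries and also made by epithelium, stood at 47.5 and 49.7 CPM in WT and at 149 and 147 CPM in Smad4 KO. The WT libraries lay far below the Smad4 KO libraries, with no overlap. The log2 fold change was 1.61 ± 0.05 (SE, n = 2 per group, edgeR adjusted p = 5.91e-06), and 95.8% of tested genes had a lower one. Efnb1 (chrX:99136130-99148991), the ephrin-B that is usually described on villus and upper crypt cells, stood at 87.4 and 87.5 CPM in WT and at 112 and 120 CPM in Smad4 KO. Both WT libraries were lower than both KO libraries, and the log2 fold change was 0.41 ± 0.06 (adjusted p = 0.00243). Per kilobase, Efnb1 was 3.65 and 3.5 times Efnb2 in the WT libraries and 1.5 and 1.62 times in Smad4 KO.

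Ephb2 (chr4:136647539-136835988), the receptor whose level grades from the crypt base upward, stood at 205 and 209 CPM in WT and at 163 and 159 CPM in Smad4 KO. The groups did not overlap, and the log2 fold change was -0.36 ± 0.04 (adjusted p = 0.00164). Ephb3 (chr16:21204755-21223305), which keeps Paneth cells at the crypt base, stood at 85.4 and 82.9 CPM in WT and at 64.1 and 69.7 CPM in Smad4 KO. Again the groups did not overlap (log2 fold change -0.33 ± 0.07, adjusted p = 0.0117), but leaving out WT replicate 1 raised the adjusted p to 0.0658 and leaving out Smad4 KO replicate 1 to 0.0555. Ephb4 (chr5:137350109-137378669), the receptor that pairs with ephrin-B2 in vessels, stood at 196 and 197 CPM in WT and at 170 and 171 CPM in Smad4 KO. Its replicates lay close together, yet the log2 fold change of -0.20 ± 0.06 passed narrowly (adjusted p = 0.044). Leaving out either WT library gave an adjusted p of 0.149 or 0.139, and leaving out either Smad4 KO library 0.135 or 0.128.

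Among the A-type members, Epha1 (chr6:42358487-42373268), an EphA receptor of epithelia, stood at 49.0 and 47.1 CPM in WT and at 71.9 and 75.1 CPM in Smad4 KO. It rose 1.53-fold (log2 fold change 0.61 ± 0.07, adjusted p = 0.000983), with both KO libraries above both WT libraries. About 6.01% of its exon length overlaps Zyx on the opposite strand, and Zyx ranged from 82.4 to 105 CPM with no separation of the groups. Epha2 (chr4:141301240-141329384), a receptor of epithelial and tumour cells, stood at 51.4 and 54.1 CPM in WT and at 51.9 and 53.3 CPM in Smad4 KO. The groups overlapped, and the 95% interval of the log2 difference ran from -0.15 to 0.14.

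Efna4 (chr3:89333390-89338028), an A-type ligand, stood at 39.1 and 42.3 CPM in WT and at 24.6 and 29.5 CPM in Smad4 KO. The groups did not overlap and it fell 1.5-fold (log2 fold change -0.59 ± 0.11, adjusted p = 0.00864), although without WT replicate 2 the adjusted p was 0.0513. About 10.5% of the Efna4 exons overlap 4731419I09Rik on the opposite strand, which stayed under 1.58 CPM in every library. Efna1 (chr3:89271733-89281142), the A-type ligand with the most transcript per kilobase in every group, stood at 80.8 and 82.3 CPM in WT and at 89.9 and 92.3 CPM in Smad4 KO. These libraries did not overlap, but the difference did not pass (log2 fold change 0.16 ± 0.07, adjusted p = 0.122).

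The second comparison set Smad4 KO+TGFb against Smad4 KO. With TGF-β, Epha2 rose 2.36-fold, Ephb2 rose 1.24-fold, and Ephb4 and Efna1 fell 1.23-fold and 1.34-fold. The other 5 members, among them both ephrin-B ligands, did not pass. Of all genes tested 16.3% passed (20.4% with all values divided by 4), 7.78% higher and 8.48% lower. The members' median was -0.005 against -0.008 for all genes. The share of all genes passing was 10.3% without Smad4 KO replicate 1, 10% without Smad4 KO replicate 2, 9.2% without Smad4 KO+TGFb replicate 1 and 9.4% without Smad4 KO+TGFb replicate 2.

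Epha2 stood at 122 and 126 CPM with TGF-β, against 51.9 and 53.3 CPM in Smad4 KO. All 4 libraries without TGF-β lay between 51.4 and 54.1 CPM. The log2 fold change was 1.24 ± 0.06 (adjusted p = 8.45e-05), and 94.2% of tested genes had a lower one. Ephb2 stood at 197 and 203 CPM with TGF-β, above both Smad4 KO libraries (log2 fold change 0.31 ± 0.04, adjusted p = 0.00538). Ephb3 stood at 76.4 and 73.5 CPM, also above both, but did not pass (log2 fold change 0.16 ± 0.07, adjusted p = 0.164).

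Ephb4 stood at 131 and 146 CPM with TGF-β, below both Smad4 KO libraries. Its log2 fold change was -0.30 ± 0.06 (adjusted p = 0.0186), and the call was lost without Smad4 KO replicate 1 or 2 (adjusted p = 0.074 and 0.0783) or Smad4 KO+TGFb replicate 1 (0.0811). Efna1 stood at 71.0 and 64.7 CPM, below both Smad4 KO libraries and both WT libraries, with a log2 fold change of -0.43 ± 0.07 (adjusted p = 0.00751). Epha1 stood at 60.9 and 64.2 CPM, below both Smad4 KO libraries and above both WT libraries. This difference from Smad4 KO did not pass in edgeR (log2 fold change -0.23 ± 0.07, adjusted p = 0.064) and passed in DESeq2 (adjusted p = 0.0433).

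For 3 ligands the interval of the difference between the KO groups spanned 0. Efnb2 stood at 154 and 152 CPM with TGF-β, and the 95% interval of its log2 difference from Smad4 KO ran from -0.08 to 0.17. Efnb1 stood at 114 and 115 CPM, with an interval from -0.15 to 0.12. Efna4 stood at 27.0 CPM in both libraries, with a wider interval from -0.27 to 0.26.

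**Figure D2:**
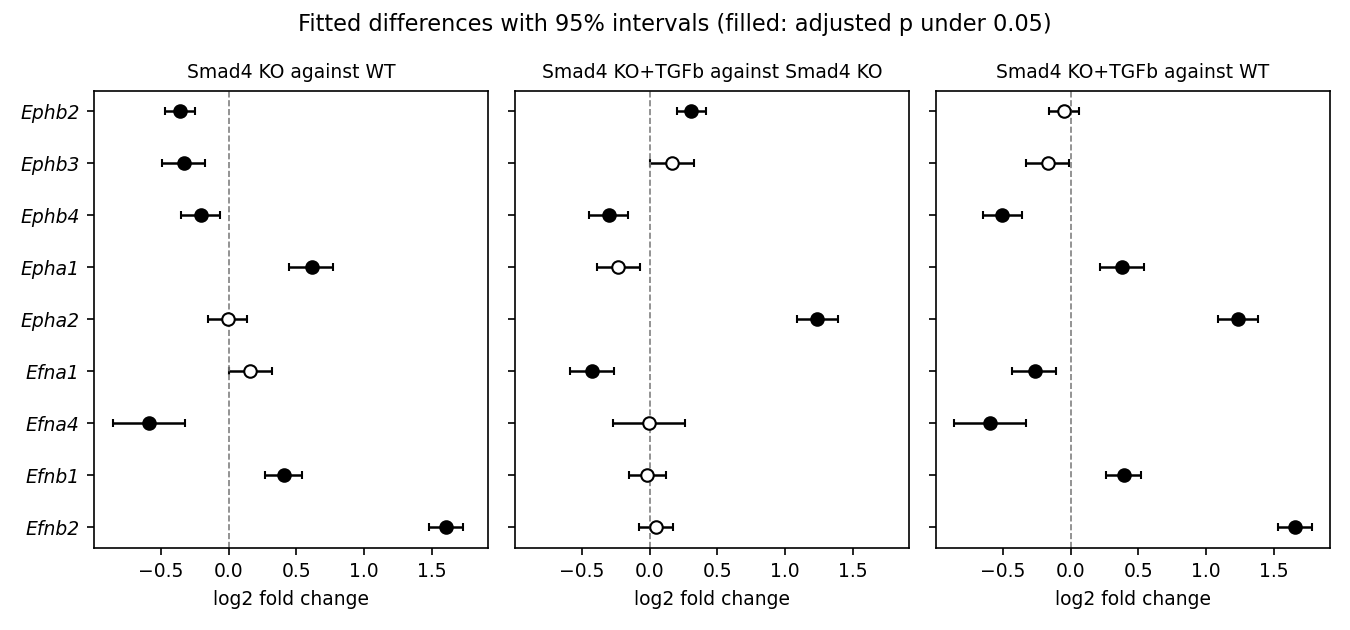
Fitted log2 fold change of each member in the 3 comparisons; bars are approximate 95% intervals from the edgeR standard errors, and filled points have an adjusted p under 0.05. Efnb2 lies at 1.61 and 1.65 against WT and at 0.05 between the KO groups, and Epha2 lies at 1.24 between the KO groups and at 1.23 against WT.

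The third comparison set Smad4 KO+TGFb against WT and shares its libraries with the other comparisons, so it is not independent of them. Here 4 members rose (Epha1, Epha2, Efnb1 and Efnb2), 3 fell (Ephb4, Efna1 and Efna4) and 2 did not pass, with a median of -0.05. Of all genes tested 39.7% passed (47.9% with all values divided by 4), 20.7% higher and 19% lower, with a median of -0.02. Efnb2 was 3.14-fold and Epha2 2.35-fold higher (adjusted p = 3.93e-06 and 2.35e-05), Efnb1 was 1.31-fold and Epha1 1.3-fold higher (0.00198 and 0.00504). Ephb4 was 1.42-fold and Efna4 1.51-fold lower (adjusted p = 0.000932 and 0.00615). Efna1 was 1.2-fold lower (adjusted p = 0.0204), and did not pass without WT replicate 1 or 2 (0.0687 and 0.0869) or Smad4 KO+TGFb replicate 2 (0.113). Ephb2 and Ephb3 did not pass, with 95% intervals of the log2 difference from -0.16 to 0.06 and from -0.33 to -0.01. These intervals are not adjusted for the number of genes, and the adjusted p values were 0.415 and 0.0939.

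Per kilobase, Efna1 led the 9 members in all 3 groups, at 44.6 ± 0.57 in WT, 49.8 ± 0.92 in Smad4 KO and 37.1 ± 2.5 in Smad4 KO+TGFb (CPM per kilobase, mean ± SD, n = 2). In WT the order below it was Ephb4 (42.3), Efna4 (25.5), Efnb1 (25.3), Ephb2 (16.4), Ephb3 (12.7), Epha1 (12.2), Epha2 (11.3) and Efnb2 (7.09). Neighbours overlapped between libraries in 2 pairs there, Efna4 with Efnb1 and Ephb3 with Epha1. In Smad4 KO, Efnb2 moved from the last place to the fourth, at 21.6 CPM per kilobase, and Ephb3 became the last, at 10.1. In that group Epha1 (18.7) and Efna4 (16.9) overlapped, and no other neighbours did. With TGF-β, Epha2 moved from the eighth place to the fourth, at 26.5 CPM per kilobase, and Epha1 (15.9) overlapped Ephb2 (15.8). These orders rest on the merged exon length, which runs from 1599 bases for Efna4 to 12608 for Ephb2 and can understate a gene whose long exons are little used.

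Receptor and ligand transcripts were also summed within each class, as a description without a test. EphB receptors (Ephb2, Ephb3 and Ephb4) over ephrin-B ligands (Efnb1 and Efnb2) gave a ratio of 2.21 and 2.19 in the WT libraries. The ratio was 1.09 and 1.07 in Smad4 KO and 0.998 and 1.05 in Smad4 KO+TGFb. Ephb4 had the most transcript of these receptors, at 42.3, 36.7 and 29.8 CPM per kilobase in WT, Smad4 KO and Smad4 KO+TGFb. In the same order Ephb2 stood at 16.4, 12.8 and 15.8 and Ephb3 at 12.7, 10.1 and 11.3. These sums and ratios rest on the merged exon lengths too. The summed receptors stood at 71.4 CPM per kilobase in WT and 59.6 in Smad4 KO, and the summed ligands at 32.4 and 55.1, so the sums differed more for the ligands than for the receptors. EphA receptors (Epha1 and Epha2) over the A-type ligands Efna1 and Efna4 gave 0.342 and 0.33 in the WT libraries, 0.456 and 0.443 in Smad4 KO, and 0.747 and 0.83 in Smad4 KO+TGFb. Epha2 made up 11.9% of the transcript per kilobase of the 5 receptors in WT organoids, 12.6% in Smad4 KO, and 26.7% in Smad4 KO+TGFb. The 2 libraries of each group lay closer together than the WT group lay to either other group, in both ratios.

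**Figure D3:**
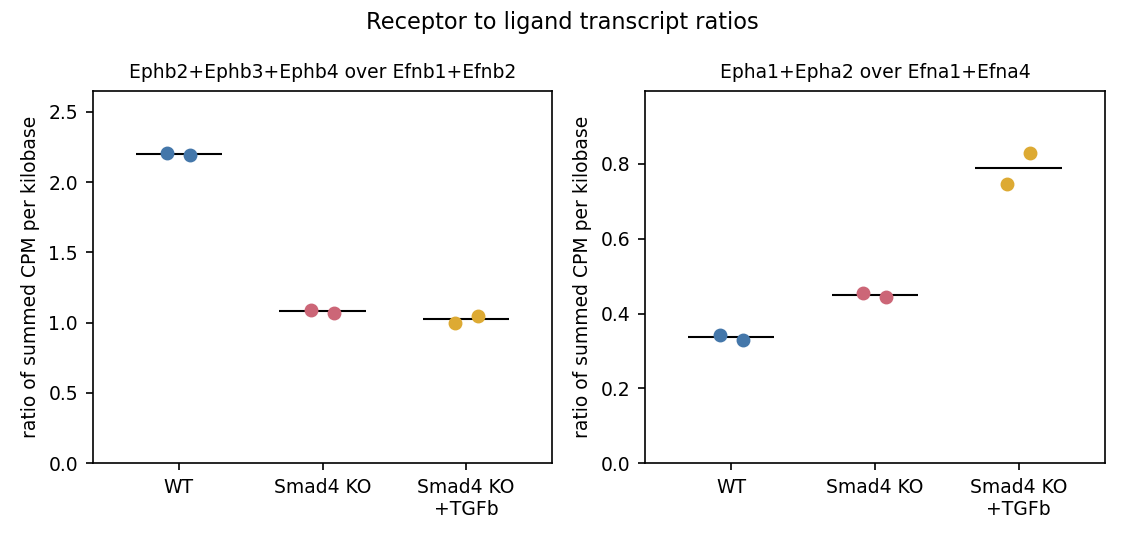
Ratios of summed CPM per kilobase for EphB receptors over ephrin-B ligands (left) and EphA receptors over A-type ephrins (right), linear axes from 0; points are libraries and lines are means of 2. The EphB ratio lies near 2.2 in WT and near 1.0 to 1.1 in the other 4 libraries, while the EphA ratio is highest with TGF-β.

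The remaining 13 genes of the family were measured as well. Of these 7 passed the filter on low counts, and most had few counts. Efna3, an A-type ligand, stood at 41.9 and 43.8 CPM in WT, at 5.75 and 6.1 CPM in Smad4 KO and at 3.84 and 3.9 CPM with TGF-β. It fell 7.23-fold in Smad4 KO against WT (log2 fold change -2.85 ± 0.11, adjusted p = 1.13e-05), a wider difference than that of any member. Efna3 (chr3:89313899-89322965) lies between Efna1 and Efna4 on chromosome 3, in a stretch of 66296 bases that holds the 3 genes in the order Efna1, Efna3, Efna4. In Smad4 KO against WT these neighbours thus had log2 fold changes of 0.16 (not passed), -2.85 and -0.59. About 14.1% of the Efna3 exons overlap Gm15998 on the opposite strand, which stayed under 0.41 CPM in every library. With Efna3 included, a sum chosen after its values were seen, the EphA to ephrin-A ratio was 0.273 and 0.264 in the WT libraries, 0.439 and 0.427 in Smad4 KO, and 0.726 and 0.805 in Smad4 KO+TGFb. Efna3 supplied 20.1% of these A-type ligands in both WT libraries and 2.75% to 3.53% in the other 4.

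With TGF-β, Efna3 fell further against Smad4 KO (log2 fold change -0.61 ± 0.11, adjusted p = 0.0118). That call was lost with only the 4 libraries compared (adjusted p = 0.0977), without Smad4 KO replicate 2 (0.0584) and without Smad4 KO+TGFb replicate 1 or 2 (0.061 and 0.052). Epha4, a receptor that binds ligands of both classes, stood at 16.1 and 17.8 CPM in WT, at 11.5 and 15.4 CPM in Smad4 KO and at 24.96 and 25.5 CPM with TGF-β. It rose with TGF-β against Smad4 KO (log2 fold change 0.91 ± 0.16, adjusted p = 0.011), but not without Smad4 KO+TGFb replicate 1 or 2 (0.0528 and 0.0566). It rose with TGF-β against WT too (log2 fold change 0.57 ± 0.16, adjusted p = 0.0273), and that call was lost without either WT library (0.129 and 0.0702) or either treated library (0.087 and 0.1). In Smad4 KO against WT Epha4 did not pass (adjusted p = 0.166), but it did without Smad4 KO replicate 2 (0.0429). Epha7 stood at 4.83 and 3.49 CPM in WT and at 0.925 and 1.12 CPM with TGF-β (log2 fold change -2.02 ± 0.38, adjusted p = 0.00675). Ephb6, Efna2, Efna5 and Efnb3 passed in no comparison and stayed at or under 2.04 CPM. Epha6, Epha10 and Ephb1 had no count in any library, and Epha3, Epha5 and Epha8 stayed under 0.3 CPM.

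**Figure D4:**
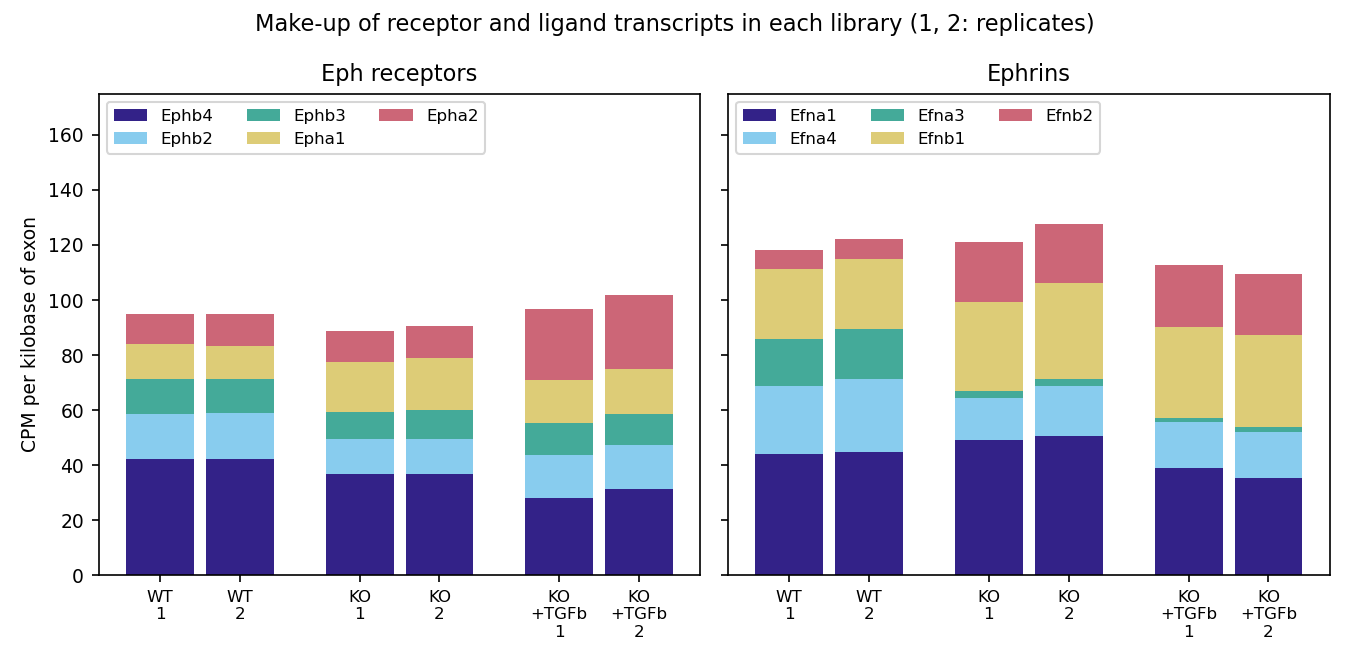
Stacked CPM per kilobase of exon for 5 Eph receptors (left) and 5 ephrins including Efna3 (right) in each of the 6 libraries, linear axis from 0. Epha2 widens with TGF-β, from 11.9% of these receptors in WT to 26.7%, and among the ephrins Efnb2 widens and Efna3 narrows in all Smad4 KO libraries.

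Wnt/TCF targets, the group to which Ephb2 and Ephb3 are usually assigned, were set beside the members. In Smad4 KO against WT 11 of 16 fell and 0 rose, where 13.4% of all genes fell and 16.9% rose. The list's median log2 fold change was -0.77. It was the same with Lef1, at 0 in Smad4 KO, set to a bound of 3 fragments over the group. The falls of Ephb2 (-0.36) and Ephb3 (-0.33) were thus smaller than the list's median. Lgr5, the receptor of crypt base stem cells, had a log2 fold change of -1.03, Axin2 of -0.77, Sox9 of -0.58 and Sp5 of -1.12 (adjusted p = 1.01e-05, 0.000278, 0.000373 and 0.000537). With TGF-β against Smad4 KO, where 16.3% of all genes passed, 2 rose and 3 fell. The median was 0.31, or 0.26 with Lef1 at its bound. Ephb2 rose there while Lgr5 (-0.90) and Axin2 (-0.54) fell, and Ccnd1 (0.87) and Nkd1 (1.84) rose (adjusted p = 4.74e-05, 0.00223, 6.54e-05 and 0.00152). The value of Ccnd1 is uncertain, because LTO1, read from the other strand, covers about 23.4% of its exons. Against WT, where 39.7% of all genes passed, 3 rose and 8 fell with TGF-β, with a median of -0.88. Lgr5 was at -1.93, Axin2 at -1.31, Sox9 at -0.85 and Ccnd1 at 0.68 (adjusted p = 7.65e-07, 2.05e-05, 4.66e-05 and 4.69e-05), while Ephb2 was at -0.05.

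Markers of differentiated and Paneth cells also differed between the groups, not always together with the members. Enterocyte markers (8 of 8 higher in Smad4 KO against WT) summed to 2760 and 2770 CPM in WT, to between 9460 and 9541 in Smad4 KO, and to between 6136 and 6181 after TGF-β, where 7 of 8 fell against Smad4 KO. These falls were uneven, from 1.09-fold for Apoa1 to 2.34-fold for Sis, and Alpi, at 1320 CPM in Smad4 KO and 1283 after TGF-β, did not pass. The part of Apoa4 in the sums is uncertain, because about 69.75% of its exons overlap Gm10680 and Gm47528 on the opposite strand. In WT, Smad4 KO and Smad4 KO+TGFb, Efnb2 stood at 48.6 ± 1.5, 148 ± 1.2 and 153 ± 1.2 CPM (SD, n = 2). Paneth cell markers (8 listed, and all 7 tested lower in Smad4 KO against WT) summed to 7980 to 8007 CPM in WT, to between 3134 and 3293 in Smad4 KO, and to between 3168 and 3252 after TGF-β, where 2 rose and 1 fell against Smad4 KO. Mmp7 rose 1.85-fold after TGF-β, from 106 CPM in Smad4 KO to 197 (edgeR adjusted p = 0.00043). That was above its 136 CPM in WT (adjusted p = 0.00128). Against Smad4 KO, Ang4 rose 1.19-fold and Defa22 fell 1.45-fold. About 11.5% of the Mmp7 exons overlap AV064505 on the opposite strand. Ephb3, which Paneth cells carry, was at 84.1 ± 1.8 CPM (SD, n = 2) in WT, 66.9 ± 3.9 in Smad4 KO, and 75.0 ± 2.0 after TGF-β. The part of these shifts in the members' values was not tested.

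**Figure D5:**
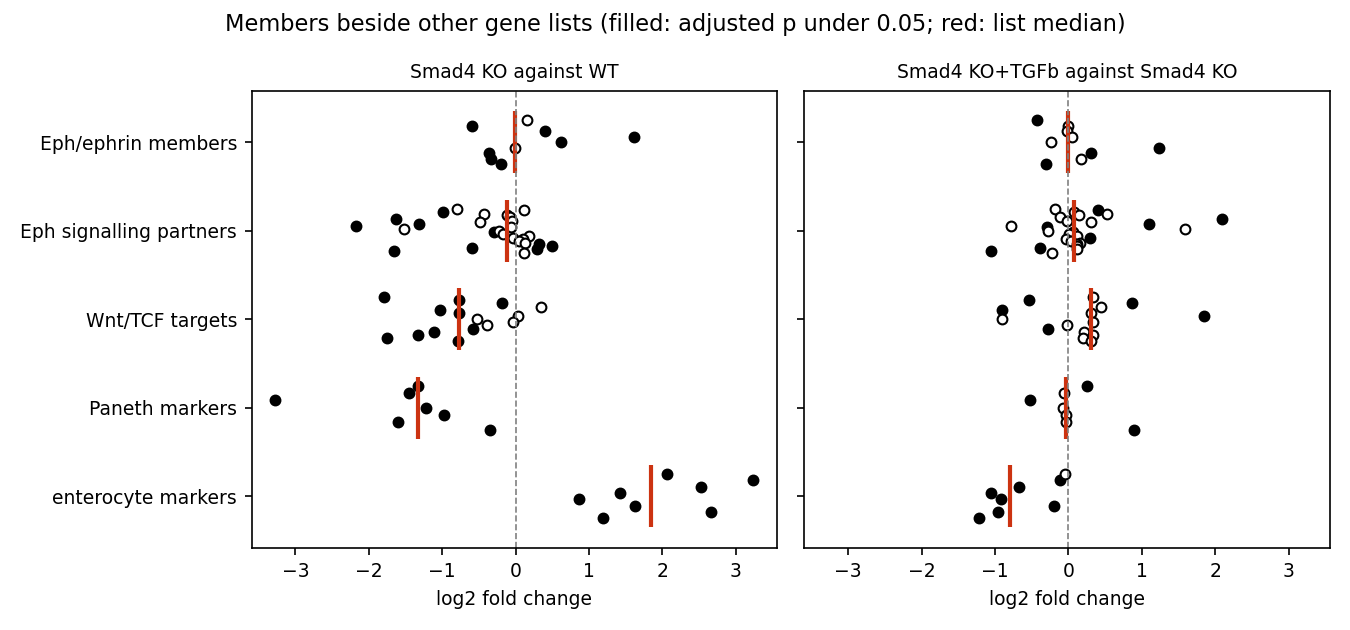
Log2 fold change of each tested gene of 5 lists in the first 2 comparisons; filled points have an adjusted p under 0.05, red bars are list medians and vertical spread is only for legibility. Lef1, at 0 in Smad4 KO, is not drawn; the Wnt/TCF median is -0.77 in Smad4 KO against WT, where the median of the 9 members is -0.004.

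Partners that carry Eph and ephrin signals inside the cell were measured as a list of 28, of which 27 were tested. In Smad4 KO against WT 3 rose and 7 fell (median -0.11), where 30.3% of all genes passed. With TGF-β against Smad4 KO 4 rose and 3 fell (0.07), where 16.3% of all genes passed. With TGF-β against WT 7 rose and 7 fell (-0.07), where 39.7% of all genes passed. Crk, an adaptor that couples activated receptors to Rac and Rap signalling, had the smallest adjusted p in the first 2. It fell from 140 to 44.9 CPM in Smad4 KO and stood at 192 CPM with TGF-β (log2 fold change -1.64, adjusted p = 2.24e-05, then 2.09, adjusted p = 2.85e-05). Vav3, an exchange factor recruited by Eph receptors, fell from 35.7 CPM in WT to 11.3 in Smad4 KO and to 5.42 with TGF-β (adjusted p = 0.000559 and 0.00666). Src, a kinase activated at Eph contacts, rose from 128 to 181 CPM in Smad4 KO (adjusted p = 0.00116) and was at 195 CPM with TGF-β. Acp1, a phosphatase that acts on Eph receptors, fell from 68.4 to 34.5 CPM in Smad4 KO (adjusted p = 0.000215), although 14.6% of its exons overlap Alkal2 on the opposite strand. With TGF-β against Smad4 KO, the kinase Abl2 rose (log2 fold change 0.41, adjusted p = 0.00898) and the adaptor Grb7 fell (-0.30, adjusted p = 0.0098). Sdcbp, a PDZ protein that binds the tail of ephrin-B, was higher with TGF-β than in WT (331 against 247 CPM, adjusted p = 0.000237). Most of this rise was already present without TGF-β, since Smad4 KO stood at 307 CPM (adjusted p = 0.00131 against WT). Between the KO groups the Sdcbp difference did not pass (log2 fold change 0.11, adjusted p = 0.101).

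The genes whose profile over the 6 libraries lay closest to a member were found by the root mean square distance between log2 CPM profiles centred on their means, among 10706 other genes of at least 5 CPM. Closest to Ephb2 were Camsap1, Gcnt3 and Abcc1, at distances of 0.026, 0.034 and 0.034 on the log2 scale, where the median gene was at 0.261. Closest to Ephb3 were Cip2a, Tuba1a and Ahctf1 (0.027, 0.029 and 0.031, median 0.243). Closest to Epha2 were Wls, Myo1c and Lama5 (0.065, 0.074 and 0.076, median 0.618). Wls, which carries Wnt ligands to the cell surface, stood at 46.3 and 47.2 CPM in WT, at 44.5 and 42.0 in Smad4 KO, and at 109 and 111 after TGF-β. These profiles share 6 libraries in 3 groups, so the distances are a description only.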

How the data were processed

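RNA of 6 libraries of intestinal organoids was measured by sequencing, and samples were grouped by their titles. The authors deposited estimated counts per Ensembl gene as whole numbers. Per the submitters' processing notes the tools were HISAT2 2.1.0 and StringTie 1.3.3b, with SAMtools 1.9 and FastQC 0.11.9, on GRCm38. Not given in the sources used here are the annotation release, the strand setting and how estimates became whole numbers. Without a known strand setting, a gene and an overlapping gene on the opposite strand could not be told apart. Of values from 1 to 24, 42.3% were multiples of 4 (25% if even), from which about 4 units per fragment were inferred.

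Genes were named by Ensembl ID, of 31227 all but 97 with a symbol, and exon lengths and overlaps come from GENCODE vM21 (GRCm38). After filterByExpr 15503 genes were tested with edgeR 4.0.16 (R 4.3.3; TMM, quasi-likelihood, group as the only term, 3 residual degrees of freedom), 2-sided, adjusted by Benjamini-Hochberg. CPM and CPM per kilobase of merged exons were computed from these counts. Intervals are t intervals from the fitted standard error. Profiles for distances used a prior count of 2. On simulated data with 2 libraries per group the test missed most 1.5-fold changes. False calls made up a larger share of its calls than the threshold of 0.05 names, in all 3 comparisons. In that simulation 75, 58 and 67 of 15503 genes, drawn from all tested, were changed 1.5-fold, 2-fold and 4-fold. Far more genes passed in the data, so these shares cannot be carried over to the calls reported here.

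The members and gene lists were chosen with earlier results of these data known. The genes named are the 9 members, Smad4, family genes past the filter, up to 4 partners and up to 4 Wnt/TCF targets per comparison with the smallest adjusted p, and the 3 closest profiles to Ephb2, Ephb3 and Epha2. Other family genes, marker genes and Lef1 were named after their values were seen. Alternatives were other size factors, no filter, DESeq2 1.42.0, fewer libraries, a replicate block and values divided by 4.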

Additional observations from a re-analysis of the deposited data

How the results depend on the processing

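Over 12 alternatives for each of the 9 members in the 3 comparisons, 300 values kept their direction and their side of the threshold, 14 no longer passed, 1 newly passed (Epha1 with DESeq2) and 9 changed sign. None of those 9 had passed. They were Efna4 between the KO groups (log2 fold change 0.004 with RLE size factors and with DESeq2, and, with libraries left out in turn, from -0.128 to 0.132, the latter without Smad4 KO replicate 2), Efnb1 in the same comparison (from -0.062 to 0.032, the latter without Smad4 KO replicate 2), and Epha2 in Smad4 KO against WT (0.001 with RLE size factors and with DESeq2, and from -0.037 to 0.034 with libraries left out, above 0 in 3 of these fits). The calls of Efnb2 and Epha1 against WT, of Epha2 with TGF-β, of Efnb1 against WT, and of Ephb2 in the first 2 comparisons passed under all 12. So did the falls of Efna1 in Smad4 KO+TGFb against Smad4 KO, and of Efna4 and Ephb4 in Smad4 KO+TGFb against WT.

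When a library was left out, the genes passing ranged from 3231 to 4305 for Smad4 KO against WT, from 1504 to 2304 for Smad4 KO+TGFb against Smad4 KO and from 4554 to 6012 for Smad4 KO+TGFb against WT, and the lone library of a group was assumed to vary like the others. Members passing ranged from 5 to 7, 3 to 4 and 6 to 7 in the 3 comparisons. Replicate numbers are shared between groups, but deviations of same-numbered libraries correlated at only 0.001 to 0.014. With a replicate block 4184, 2153 and 5667 genes and 6, 4 and 7 members passed, and Ephb4 in Smad4 KO against WT had an adjusted p of 0.0605. With 2 libraries per group, a member that did not pass may still differ. Efna3, Epha4 and Epha7 were put through these alternatives after the data were seen, and the calls they lost stand beside their values.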
